A study of Mus musculus with 30 samples.

Results

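The 10 genes described here belong to the Notch pathway of the mouse embryonic forebrain: the receptor genes Notch1, Notch2 and Notch3, the ligand genes Dll1, Dll3 and Jag1, the gene of the nuclear partner Rbpj, and the target genes Hes1, Hes5 and Hey1. They were chosen by symbol, and all 10 had a row among the 53974 genes of the expression table. RNA came from neural stem and progenitor cells (NSPCs), which were grown from the C57BL/6 forebrain at E13.5 (mid-gestation) with growth factors and passaged. They received DMSO, the solvent (control), crotonate at 10 mM, a short-chain fatty acid that cells turn into the donor for lysine crotonylation, or MS-275 at 1 µM, an inhibitor of class I histone deacetylases, for 24 h, with 4 libraries per group. No genetic change or driver line was part of any group. The labels do not give a solvent for crotonate, so effects of solvent and of crotonate cannot be told apart in that comparison. Explants of the E13.5 forebrain of ICR mice, with 3 control and 3 crotonate libraries, had their dose and time of treatment not stated in the labels, and untreated C57BL/6 forebrain gave 1 RNA library. The 8 peak lists came from 1 chromatin immunoprecipitation library each: marks on lysine 9 of histone H3, crotonylation (H3K9cr) and acetylation (H3K9ac), in untreated forebrain, and crotonylated lysine (Kcr) and acetylated lysine (Kac) in control, crotonate and MS-275 NSPCs. The series' methylation, IgG and input libraries were not analysed here.

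Notch signalling passes between touching cells. A ligand of the Delta or Jagged type on a cell is bound by a Notch receptor on its neighbour, the receptor is cut, and its inner part joins Rbpj in the nucleus to switch on Hes and Hey genes, which encode repressors. In the embryonic forebrain these repressors hold down proneural genes and keep radial glia as progenitors, while cells that start to become neurons carry Delta ligands.

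RNA levels are given as TPM, transcript counts scaled to a fixed library total and corrected for gene length. Read counts per library were not used here, so the depth is unknown. A gene was tested when 4 or more NSPC libraries gave it 1 TPM or more, which 14857 genes met, the 10 Notch genes among them. All 8 markers of neural stem and progenitor cells averaged 1 TPM or more in each NSPC group. Their summed level ran from 9601 to 10138 TPM in control, from 8968 to 9871 with crotonate and from 13529 to 14210 with MS-275. Most of that sum was Vim, at 3671, 3459 and 5970 TPM on average in the 3 groups, and Fabp7, at 4946, 5005 and 6898 TPM. The single markers did not move together. With crotonate 1 was called higher and 1 lower, where 48.1% of all tested genes were called. With MS-275 3 were called higher and 3 lower, where 65.1% of all tested genes were called. In the MS-275 group Nes averaged 254 TPM against 367 in control, Pax6 15.5 against 24.7 and Sox1 9.52 against 16.1 TPM. Of 8 markers of endothelium, another site of Notch signalling, 7 stayed under 1 TPM in all 12 NSPC libraries. The remaining marker, Kdr, had means of 0.532 (control), 2.03 (crotonate) and 3.59 TPM (MS-275). Kdr was the only endothelial marker tested, and both treatments had it called higher than control. The 8 endothelial markers summed to 1.67 to 2.41 (control), 2.98 to 3.95 (crotonate) and 4.9 to 6.6 TPM (MS-275). What such cells contribute to the Notch gene changes was not tested. The cultures also held 614 TPM of Olig2 on average in the control group, a gene of oligodendrocyte precursors and ventral progenitors, against 30.4 TPM in the forebrain.

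Promoter sequence was available from RefSeq (GRCm38.p6) for 8 of the 10 genes, all but Hes1 and Hey1. Stretches upstream of 4 start sites are shown because they carry the short motifs by which the pathway is wired, and because the results below turn on these genes. Rbpj binds GTGGGAA. Hes repressors bind the N box, CACNAG, and proneural factors bind the E box, CANNTG. Each motif was searched on both strands in the 250 bases before the start, and capitals mark the motif named in the line. The 2 short Hes5 stretches, each 30 bases on the plus strand, lie inside the annotated gene span, which begins before the start site used here.
Hes5, Rbpj motif, chr4:154960686-154960715: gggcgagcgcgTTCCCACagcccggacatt
Hes5, Rbpj motif, chr4:154960829-154960858: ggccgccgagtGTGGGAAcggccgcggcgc
Dll1, E boxes, minus strand, chr17:15376933-15377182: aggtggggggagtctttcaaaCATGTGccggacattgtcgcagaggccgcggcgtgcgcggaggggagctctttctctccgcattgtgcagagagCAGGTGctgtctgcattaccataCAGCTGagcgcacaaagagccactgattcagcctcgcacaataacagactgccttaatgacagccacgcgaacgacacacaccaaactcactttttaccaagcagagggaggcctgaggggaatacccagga
Dll3, E boxes, minus strand, chr7:28301786-28302035: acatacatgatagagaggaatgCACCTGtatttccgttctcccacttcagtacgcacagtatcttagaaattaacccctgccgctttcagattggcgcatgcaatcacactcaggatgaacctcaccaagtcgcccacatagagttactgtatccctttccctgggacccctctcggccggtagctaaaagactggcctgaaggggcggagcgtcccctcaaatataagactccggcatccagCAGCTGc
Notch3, N boxes, minus strand, chr17:32166897-32167140: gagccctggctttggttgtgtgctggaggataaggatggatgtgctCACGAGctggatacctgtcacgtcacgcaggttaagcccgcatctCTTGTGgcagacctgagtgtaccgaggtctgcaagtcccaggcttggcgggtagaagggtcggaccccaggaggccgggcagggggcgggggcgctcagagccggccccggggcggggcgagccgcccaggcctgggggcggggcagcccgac

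Hes5 was the only gene of the 8 whose window held the full Rbpj motif, with 2 copies in opposite orientation, at -226 to -220 and at -83 to -77 from the start site. That motif was present in 5.42% of the 32851 promoter windows of the table. The Dll1 window printed above had 3 E boxes and the Dll3 window had 2, a motif that 66.2% of all windows held. Windows of Rbpj, Hes5 and Jag1 and of another Dll1 start held E boxes too. The Notch3 window had 2 N boxes, found in 36.7% of windows, and Notch1 and Notch2 had 1 each. These are matches of letters and not evidence of binding.

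In control NSPCs Notch1 was the highest of the 10 at 56.3 ± 8.68 TPM (SD, n = 4), and its 4 libraries lay above those of every other member. Rbpj at 42.2 TPM, Hes1 at 41.4 and Jag1 at 39.4 followed as neighbours with overlapping ranges. Next came Hey1 at 24, Dll1 at 22.7, Notch3 at 17.8, Hes5 at 11.1 and Notch2 at 8.74 TPM, each overlapping the next in order. Dll3 was lowest at 6.28 TPM, with all 4 libraries below those of Notch2. By mean, MS-275 moved Notch3 from the seventh place to the second, at 43.2 TPM, and crotonate to the fifth, at 34.1 TPM. The Notch3 range overlapped that of Jag1, next below it, with MS-275 and that of Rbpj, next above it, with crotonate. Hes5 had the lowest mean under both treatments, overlapping its neighbour in order. The plot of levels by library shows these values together.

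**Figure D1:**
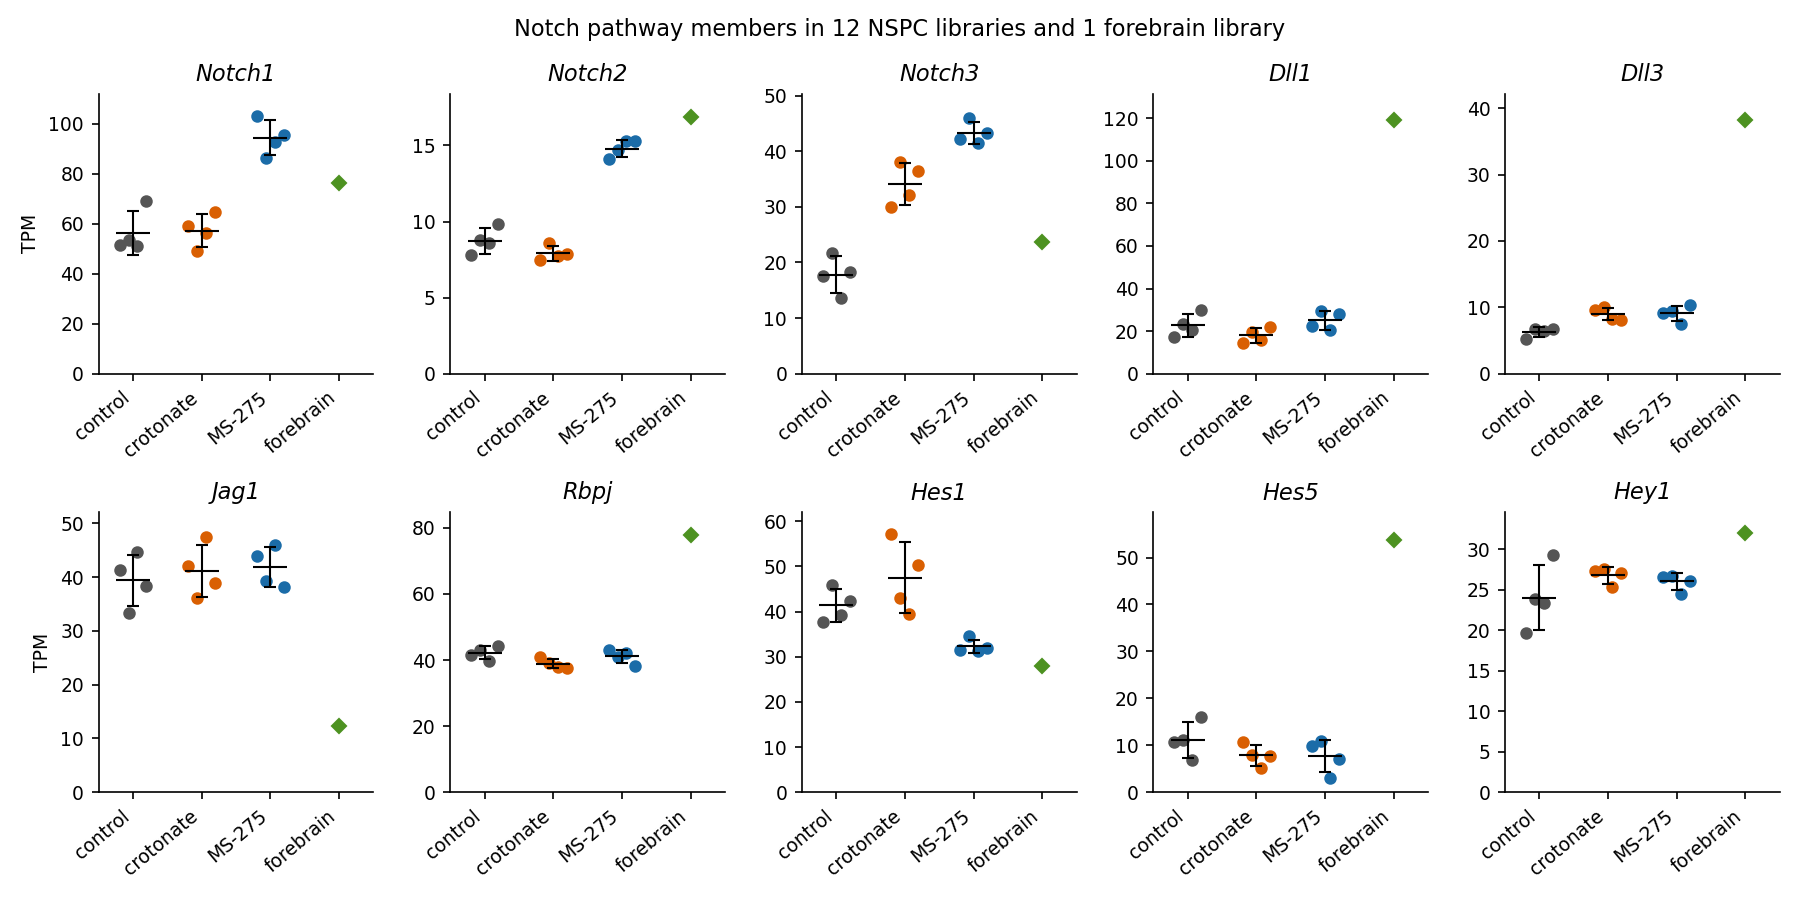
TPM of the 10 genes in each NSPC library (circles; 4 each for control, crotonate and MS-275) and in the 1 forebrain library (diamond), with horizontal lines at group means and bars of 1 SD. The 4 MS-275 libraries of Notch1, Notch2 and Notch3 lie above all controls, those of Hes1 lie below all controls, and the forebrain lies far above the cultures for Dll1, Dll3 and Hes5.

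In the reported fit, which has no replicate block, crotonate raised Notch3 and Dll3 and left no other member past the threshold. Notch3 reached 1.92 times and Dll3 1.43 times its control mean. The threshold was a limma adjusted p of 0.05 (Benjamini-Hochberg over the 14857 genes), under which 2 of the 10 Notch genes were higher and 0 lower. Crotonate moved a large part of the transcriptome, with 48.1% of tested genes called, 32.3% higher and 15.9% lower, so the 2 calls are below that share. The ranges of the 4 treated and 4 control libraries did not overlap for the same 2 genes and for 44.2% of tested genes. At an unadjusted p under 0.05, Rbpj was also lower. The median log2 fold change was 0.04 over the 10 genes and 0.09 over all genes tested. The direction of small changes depended on scaling. With libraries rescaled by the median of ratios the median of all genes moved to -0.03 and the calls over all genes from 4796 higher and 2356 lower to 3503 higher and 4213 lower. Among the 10 genes this gave 2 higher and 3 lower, the latter being Notch2, Dll1 and Rbpj. With the replicate number as a block and no rescaling, Notch3 and Dll3 stayed higher and Dll1 was called lower (limma adjusted p = 0.00752).

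MS-275 raised all 3 receptors and Dll3 and lowered Hes1. Notch3 reached 2.43 times, Notch2 1.69 times and Notch1 1.68 times the control mean, and Hes1 fell to 0.782 times it. Thus 4 of 10 were higher and 1 lower, where 65.1% of all tested genes were called, 37.4% higher and 27.6% lower. The ranges of the 4 and 4 libraries were apart for these 5 genes and for 58.5% of tested genes. The median log2 fold change was 0.14 over the 10 genes and 0.08 over all genes. Rescaling by the median of ratios gave 4 higher and 2 lower, Rbpj being the added call, and changed the calls over all genes from 5561 higher and 4107 lower to 4699 higher and 5087 lower. With the replicate number as a block and no rescaling, Hes5 was the added call, as lower (limma adjusted p = 0.0334). Both treatments were compared with the same 4 control libraries.

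Markers of other neural cell types were also called in the same libraries. Of all tested genes 32.3% were called higher and 15.9% lower with crotonate, and 37.4% and 27.6% with MS-275. Of 6 tested neuron markers 5 were called higher and 1 lower with crotonate and 6 higher with MS-275, and their summed level (8 genes) was 593 to 668 TPM in control, 527 to 581 TPM with crotonate and 725 to 772 TPM with MS-275. Most of that sum was Gap43, at 622, 500 and 685 TPM on average in the 3 groups. Snap25, a gene of nerve endings, averaged 4.32, 25 and 28.7 TPM. Neurod6 stayed under 1 TPM in every NSPC library. Of 5 astrocyte markers 4 were higher with crotonate and 3 with MS-275, and 0 lower, with sums of 70.9 to 84.8, 121 to 138 and 125 to 154 TPM. Of 6 oligodendrocyte lineage markers 2 and 3 were higher and 0 lower, with sums of 1686 to 1885, 1848 to 2099 and 2843 to 3123 TPM, most of it Olig1. The part of these cell types in the Notch gene changes was not tested.

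Between the treatments, MS-275 had higher Notch1, Notch2, Notch3 and Dll1 and lower Hes1 than crotonate, 5 of 10 against 46.7% of tested genes (19.3% higher and 27.4% lower). Their ranges were apart for 4 of the 5, all but Dll1, against 43.3% of tested genes. The calls of Notch1, Notch2 and Hes1 remained when any of the 12 libraries was left out. Those of Notch3 and Dll1 were near the threshold and are described with these genes.

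**Figure D2:**
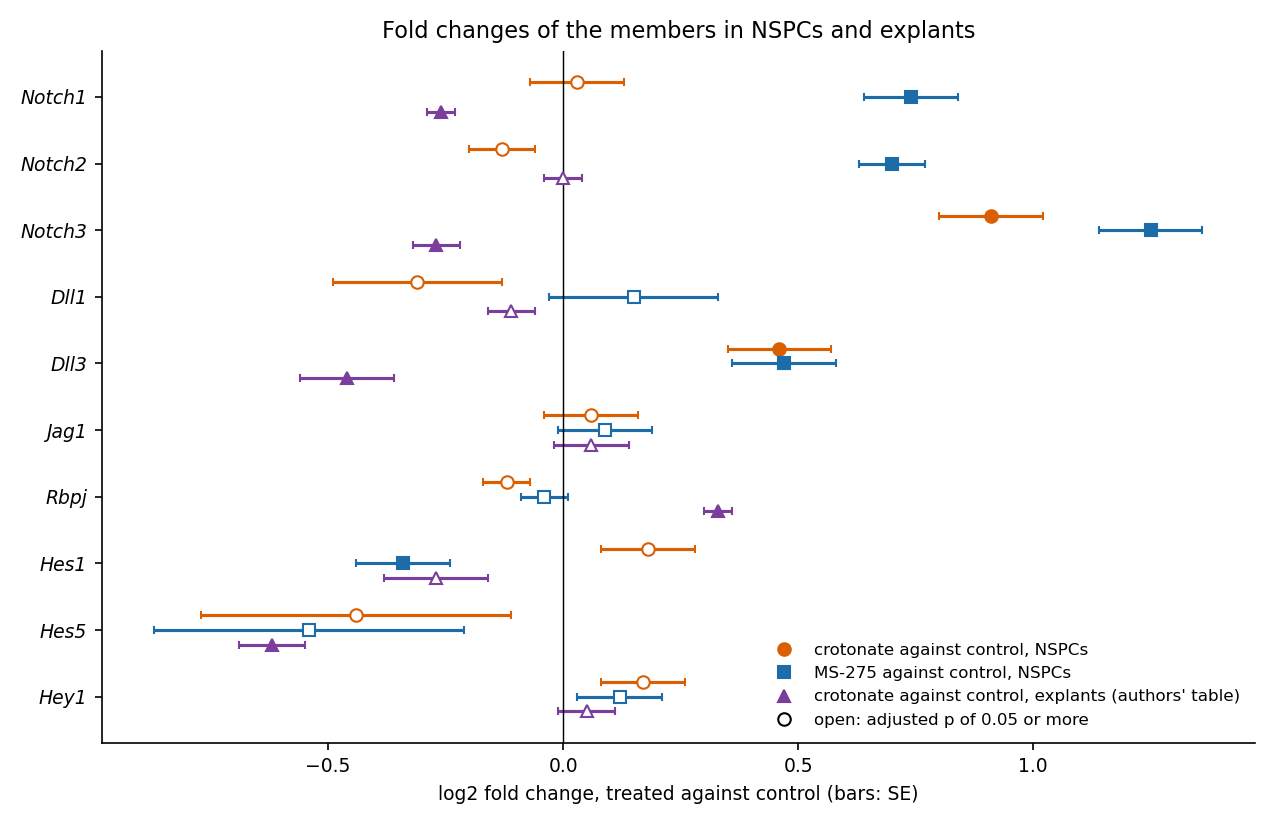
Log2 fold changes of the 10 genes against control with bars of 1 SE, for crotonate (circles) and MS-275 (squares) in NSPCs on the log2(TPM + 1) scale and for crotonate in explants (triangles) as given in the authors' deposited table; open symbols have an adjusted p of 0.05 or more. Notch3 and Dll3 lie to the right of 0 in NSPCs under both treatments and to the left of 0 in explants.

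Among the receptors, Notch1 is the main Notch receptor of forebrain progenitors. Its control libraries held 51.6, 53.3, 51.1 and 69.2 TPM, its crotonate libraries 58.9, 48.9, 56.1 and 64.7 TPM, and its MS-275 libraries 103, 86.5, 92.6 and 95.5 TPM. The crotonate values lay in the range of the controls except for 1 lower library, while all MS-275 values were above both other groups. The log2 fold change (on log2(TPM + 1), as are all those in NSPCs) was 0.03 (SE 0.10, limma adjusted p = 0.861) with crotonate and 0.74 (SE 0.10, adjusted p = 3.7e-05) with MS-275. MS-275 exceeded crotonate by 0.72 (adjusted p = 1.2e-04).

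Notch2, a second receptor of progenitors and glia, was the lowest of the 3. Its controls held 7.78, 8.76, 8.59 and 9.83 TPM, its crotonate libraries 7.44, 8.61, 7.76 and 7.84 TPM, and its MS-275 libraries 14.1, 14.7, 15.3 and 15.3 TPM. MS-275 libraries were above all others, and crotonate libraries reached from the middle of the control range to just below it. MS-275 gave a log2 fold change of 0.70 (SE 0.07, limma adjusted p = 2.9e-06) and crotonate -0.13 (SE 0.07, adjusted p = 0.177). The crotonate value passed the threshold on other scales, at -0.24 (adjusted p = 0.013) after median-of-ratios scaling and -0.42 (adjusted p = 3.4e-04) after quantile normalization.

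Notch3, a receptor best known from the mural cells of blood vessels and also carried by progenitors, had the largest change against control of the 10 genes in NSPCs under both treatments. Control libraries held 17.6, 21.6, 13.6 and 18.3 TPM, crotonate libraries 29.9, 38, 32.2 and 36.4 TPM, and MS-275 libraries 42.2, 45.9, 41.5 and 43.2 TPM. The 3 groups did not overlap, with control lowest and MS-275 highest. Crotonate gave a log2 fold change of 0.91 (SE 0.11, limma adjusted p = 3.5e-05) and MS-275 of 1.25 (SE 0.11, adjusted p = 8.3e-07). MS-275 exceeded crotonate by 0.34 (SE 0.11, adjusted p = 0.0281). That last call was lost without the filter on low genes (adjusted p = 0.0612) and when crotonate replicate 1 or 3 or MS-275 replicate 2 or 4 was left out, with an adjusted p of 0.0816 at most. With the replicate number as a block it was 0.00702.

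The summed level of 8 mural cell markers was 16.5 to 19.9 TPM in control, 19.9 to 23.3 TPM with crotonate and 40.7 to 47.5 TPM with MS-275. Of the 3 that were tested, 1 was called higher with crotonate and 2 with MS-275, where 32.3% and 37.4% of all tested genes were. Most of the sum in all 3 groups was Cspg4, which oligodendrocyte precursors also carry, at 17, 15.7 and 29.9 TPM on average. Pdgfrb, which defines mural cells, averaged 0.254, 0.552 and 0.858 TPM, and Abcc9 stayed under 1 TPM in every NSPC library. Des, a filament gene of muscle and mural cells, averaged 0.699, 1.94 and 10.2 TPM. The part of such cells in the Notch3 change was not tested. In bulk RNA, more cells of a type and more RNA per cell cannot be told apart.

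The 3 receptors together summed to 82.8 ± 10.6 TPM in control, 99.2 ± 6.54 TPM with crotonate and 152 ± 5.49 TPM with MS-275 (SD, n = 4 each). Notch1 made up 68% of this sum in control, 57.6% with crotonate and 62% with MS-275. The share of Notch3 was 21.5%, 34.4% and 28.3% in the same order. Notch3 thus had its largest share of receptor RNA with crotonate and its highest level with MS-275.

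Of the ligands, Dll1 is the main Delta ligand of newly forming neurons. Control libraries held 17, 23.5, 20.4 and 29.8 TPM, crotonate libraries 14.5, 19.8, 15.6 and 21.9 TPM, and MS-275 libraries 22.4, 29.3, 20.3 and 28.2 TPM. The groups overlapped, but the replicate numbers had a shared pattern, with replicates 1 and 3 low and replicates 2 and 4 high in each group. Every crotonate library was below the control library of the same number. The log2 fold change with crotonate was -0.31 (SE 0.18, limma adjusted p = 0.163) without and -0.31 (SE 0.08, adjusted p = 0.00752) with the replicate number as a block. Dll1 was thus called lower only with that block or after median-of-ratios scaling (-0.44, adjusted p = 0.0496).

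With MS-275 the Dll1 value was 0.15 (SE 0.18, limma adjusted p = 0.477). MS-275 exceeded crotonate by 0.46 (SE 0.18, adjusted p = 0.0473), and 3 of the 4 MS-275 libraries lay above all crotonate libraries. This call was lost without the filter (adjusted p = 0.102), without the trend in the variance prior (0.0613), and in 8 of the 12 fits that left out 1 library: control 2 or 3, crotonate 1, 2 or 3, or MS-275 1, 2 or 4, with adjusted p up to 0.128. With the replicate block it held (SE 0.08, adjusted p = 9.1e-04), and MS-275 was above crotonate in 4 of 4 same-numbered pairs. Over the 12 libraries the tested genes most like Dll1 were Pgk1, a glycolytic enzyme gene (Pearson r = 0.916), Zswim8 (0.898) and Ncald (0.89), from 10575 candidates. These 12 libraries share their replicate numbers and treatments, and no p is given.

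Dll3 encodes a divergent Delta protein that acts inside the cell rather than as a ligand for a neighbour. Its 4 control libraries had 5.26, 6.75, 6.4 and 6.7 TPM, the crotonate libraries 9.63, 10, 8.22 and 8.1 TPM, and the MS-275 libraries 9.13, 9.4, 7.45 and 10.3 TPM. All treated libraries were above all controls, and the treated groups overlapped each other. The change was 0.46 (SE 0.11, limma adjusted p = 0.00383) with crotonate and 0.47 (SE 0.11, adjusted p = 0.00207) with MS-275, and the treatments differed by 0.01 (SE 0.11, adjusted p = 0.955). Quantile normalization reduced the changes to 0.12 (adjusted p = 0.374) and 0.14 (adjusted p = 0.282), and both calls were lost there.

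Jag1, the Jagged ligand of progenitors, held 41.4, 33.3, 44.6 and 38.4 TPM in control, 42.1, 36.2, 47.4 and 38.9 TPM with crotonate, and 43.9, 39.2, 46 and 38.2 TPM with MS-275. The ranges of the 3 groups overlapped, and replicate 3 was the highest library in each. Crotonate was above control in 4 of 4 same-numbered pairs. The change was 0.06 (SE 0.10, limma adjusted p = 0.65) with crotonate and 0.09 (SE 0.10, adjusted p = 0.458) with MS-275, and after median-of-ratios scaling -0.07 and -0.01. The summed level of Dll1, Dll3 and Jag1 was 68.4 ± 5.69 TPM in control, 68.1 ± 2.51 with crotonate and 76 ± 1.81 with MS-275, and Jag1 made up 57.6%, 60.4% and 55.1% of it.

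Rbpj, the DNA-binding partner of the cleaved receptor, stayed between 37.7 and 44.3 TPM in all 12 NSPC libraries. It had 41.6, 43.1, 39.7 and 44.3 TPM in control, 40.8, 39.1, 37.9 and 37.7 TPM with crotonate and 43.1, 41, 42.1 and 38.3 TPM with MS-275. Of the crotonate libraries 3 were below all controls and the fourth was in their range. The log2 fold change with crotonate was -0.12 (SE 0.05, limma adjusted p = 0.0746), which passed the threshold without control replicate 3 (-0.14, adjusted p = 0.0422), after median-of-ratios scaling (-0.24, adjusted p = 6.7e-04) and after quantile normalization (-0.14, adjusted p = 0.0253). With MS-275 it was -0.04 (SE 0.05, adjusted p = 0.537), -0.14 (adjusted p = 0.0185) after median-of-ratios scaling and 0.01 after quantile normalization.

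Hes1, a repressor switched on by Notch and by other signals, was lower with MS-275 and had a higher mean with crotonate. Control libraries held 37.8, 46, 39.3 and 42.4 TPM, crotonate libraries 57.1, 43, 39.4 and 50.4 TPM, and MS-275 libraries 31.6, 34.5, 31.3 and 31.9 TPM. All MS-275 libraries were below all others, while 2 crotonate libraries exceeded every control and the other two lay among them. MS-275 gave a change of -0.34 (SE 0.10, limma adjusted p = 0.00895) and crotonate of 0.18 (SE 0.10, adjusted p = 0.151), the latter rising to 0.27 (adjusted p = 0.0345) without crotonate replicate 3. MS-275 was below crotonate, with a difference of -0.53 (SE 0.10, adjusted p = 9.4e-04). The receptors and Hes1 therefore moved in opposite directions with MS-275. Genes most like Hes1 over the 12 libraries were Ate1 (r = 0.915), Inhbb (0.911) and Smo (0.91), the last of which encodes the signal transducer of the Hedgehog pathway.

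Hes5, the repressor most closely tied to Notch in forebrain progenitors, had the largest SE of the 10 genes. Control libraries held 10.6, 11.1, 6.79 and 16.1 TPM, crotonate libraries 10.7, 7.82, 5.15 and 7.67 TPM, and MS-275 libraries 9.82, 10.8, 3.07 and 7.09 TPM. Replicate 3 was the lowest library of each group, with a mean deviation of -0.69 (log2) from its group, and the groups overlapped. The log2 fold change was -0.44 (SE 0.33, limma adjusted p = 0.288) with crotonate and -0.54 (SE 0.33, adjusted p = 0.167) with MS-275. With the replicate number as a block, the MS-275 value kept its size at a smaller error (SE 0.19, adjusted p = 0.0334). All 4 MS-275 libraries were below the control of the same number. After quantile normalization it was -0.80 (adjusted p = 0.0469). The genes most like Hes5 were Zxdc (r = 0.855), Slitrk2 (0.844) and Lxn (0.84).

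The ratio of Hes1 to Hes5 RNA was between 2.64 and 5.79 in control, between 5.33 and 7.65 with crotonate and between 3.2 and 10.2 with MS-275. All cultures thus held more Hes1 than Hes5. The widest spread was with MS-275, where replicate 3 gave the highest ratio.

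Hey1, a related repressor, had 19.6, 23.8, 23.3 and 29.3 TPM in control, 27.3, 27.6, 25.3 and 27.1 TPM with crotonate and 26.6, 26.7, 24.5 and 26.1 TPM with MS-275. The treated libraries lay close together inside the wider control range. The change was 0.17 (SE 0.09, limma adjusted p = 0.152) with crotonate and 0.12 (SE 0.09, adjusted p = 0.262) with MS-275. Both depended on control replicate 4, the highest control, without which they were 0.26 (adjusted p = 0.00828) and 0.22 (adjusted p = 0.0151).

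**Figure D3:**
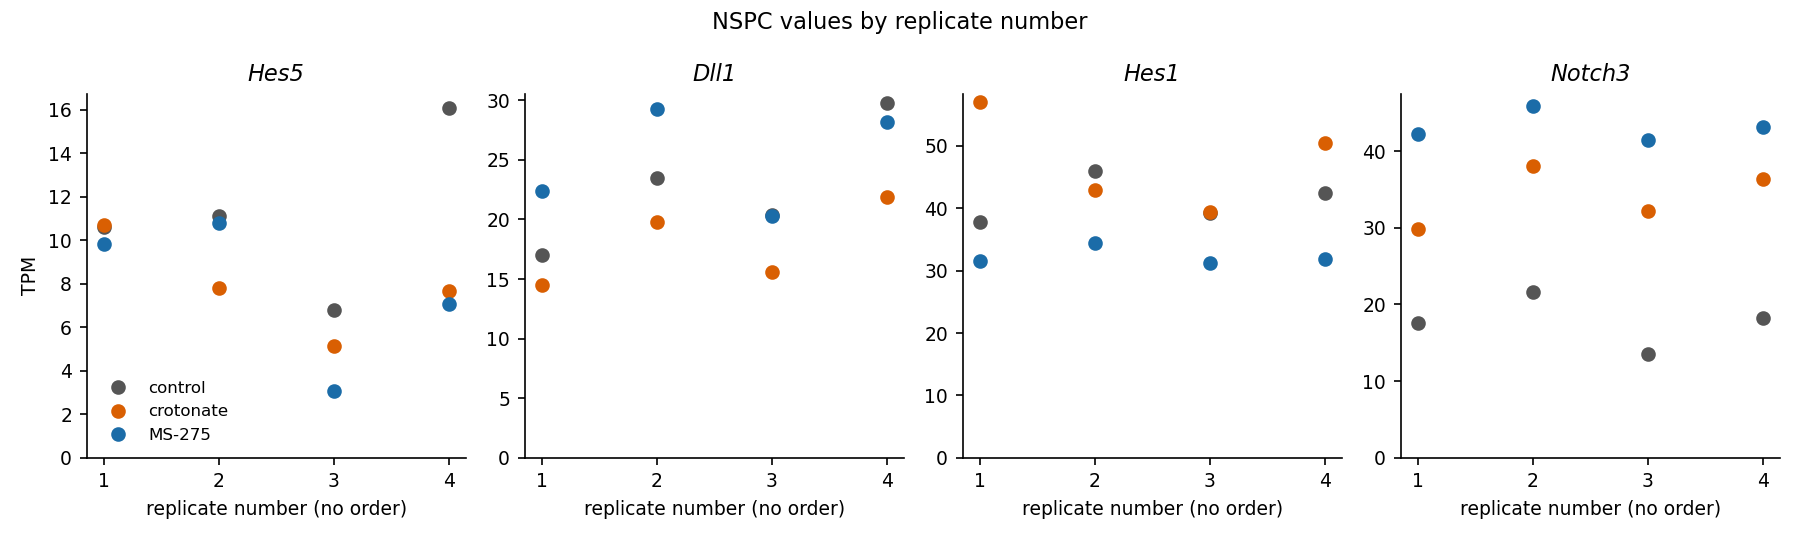
TPM of Hes5, Dll1, Hes1 and Notch3 by replicate number, which has no order, with 1 point per library and colours for control, crotonate and MS-275. Replicate 3 is lowest for Hes5 in all 3 groups, Dll1 is low in replicates 1 and 3 and high in 2 and 4, and the 3 groups of Notch3 stay apart in every replicate.

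A list of 60 other genes of the pathway was read alongside, of which 49 were tested in NSPCs. With crotonate 18 were higher and 6 lower, near the 32.3% and 15.9% of all tested genes, with a median log2 fold change of 0.04 against 0.09 over all genes. With MS-275 22 were higher and 14 lower, where 37.4% and 27.6% of all tested genes were, with a median of 0.09 against 0.08. Rescaling by the median of ratios turned these splits to 16 higher and 19 lower and to 19 higher and 18 lower. The groups within the list are small and are given as counts. In them 3 of 5 other receptor and ligand genes and 4 of 10 genes of receptor cleavage were higher with crotonate and 0 lower, while in the transcription complex 3 of 12 were higher and 5 lower. With MS-275 the cleavage genes had 7 higher and 1 lower, and the transcription complex 3 higher and 6 lower.

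Jag2, the other Jagged ligand, rose from 2.13 ± 1.03 TPM to 10.4 ± 1.03 TPM with crotonate (log2 fold change 1.94, SE 0.21, limma adjusted p = 1.4e-05) and to 10.2 ± 1.03 TPM with MS-275 (1.91, adjusted p = 5.8e-06). The size of the crotonate value depended on the pseudocount, at 2.40 with 0.1 and 1.12 with 5, and the call held with both. The mean of Jag2 went from below that of Dll3 to above it. Dner, a neuronal Notch-binding protein, rose from 59.1 to 85.9 TPM (0.54, adjusted p = 1.7e-05), and Dtx1, an ubiquitin ligase of the receptor, from 15.9 to 26.5 TPM (0.70, adjusted p = 1.7e-05). Tle2, a corepressor that Hes proteins recruit, rose from 44.9 to 83.5 TPM (0.90, adjusted p = 5.4e-05). Of its 3 listed relatives 2 fell, Tle3 from 33.6 to 27.5 TPM (-0.28, adjusted p = 0.00772) and Tle4 from 33 to 29.6 TPM (-0.15, adjusted p = 0.00792), while Tle1 averaged 21 TPM in both groups (adjusted p = 0.99). Of the partners of Rbpj, Maml1, the coactivator, fell from 11.4 to 8.66 TPM (-0.36, adjusted p = 7.2e-04) and Snw1 from 76.7 to 68.9 TPM (-0.15, adjusted p = 0.0112).

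With MS-275, Adam17, a protease that can cut the receptor, rose from 35.4 to 54.1 TPM (0.60, SE 0.04, limma adjusted p = 2.3e-08). Dner rose to 96.2 TPM (0.70, adjusted p = 6.1e-07) and Numbl, a relative of the Notch inhibitor Numb, from 8.61 to 14.5 TPM (0.69, adjusted p = 6.3e-07). Maml1 fell to 5.94 TPM (-0.83, adjusted p = 2.5e-07), Snw1 to 55.6 TPM (-0.46, adjusted p = 1.2e-06) and the ubiquitin ligase gene Itch from 41.6 to 29 TPM (-0.51, adjusted p = 7.3e-07).

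In forebrain explants the authors' deposited table, fitted with DESeq2 on 3 control and 3 crotonate libraries, called Notch1, Notch3, Dll3 and Hes5 lower and Rbpj higher with crotonate. These are 4 lower and 1 higher of the 10 genes at an adjusted p of 0.05, where 20.2% of the 14507 genes with a computed value were called, 10.5% higher and 9.75% lower. The table gives means over all 6 libraries and no value per library, so the spread between libraries is known only through its SE.

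Among the receptors in the authors' deposited table, Notch1 (mean normalized count 3621) had a log2 fold change of -0.26 (SE 0.03, adjusted p = 4.9e-19), Notch3 (1115) of -0.27 (SE 0.05, adjusted p = 5.2e-07) and Notch2 (1755) of 0.00 (SE 0.04, adjusted p = 0.979). Notch1 and Notch3 were both at about 0.83 of control, at ratios of 0.835 and 0.83. For the ligands the same authors' deposited table gave -0.46 (SE 0.10, adjusted p = 3.7e-05) for Dll3, -0.11 (SE 0.05, adjusted p = 0.153) for Dll1 and 0.06 (SE 0.08, adjusted p = 0.69) for Jag1. Rbpj had 0.33 (SE 0.03, adjusted p = 2.0e-20) there. Of the targets in the authors' deposited table, Hes5 had -0.62 (SE 0.07, adjusted p = 2.1e-15), Hes1 -0.27 (SE 0.11, adjusted p = 0.0748) and Hey1 0.05 (SE 0.06, adjusted p = 0.599).

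Hes5 had the largest change of the 10 genes in the explants, at 0.651 of control. Notch3 and Dll3 were called in both systems and in opposite directions, higher in crotonate NSPCs and lower in crotonate explants. The Dll3 call in NSPCs was lost under quantile normalization (0.12, limma adjusted p = 0.374). Notch1 (0.03 in NSPCs and -0.26 in explants), Rbpj (-0.12 and 0.33) and Hes1 (0.18 and -0.27) also had opposite signs, and none of these was called in NSPCs. Notch2 had -0.13 and 0.00. Hes5, Dll1, Jag1 and Hey1 had values of the same sign in both. None of these was called in the reported NSPC fit, and only Hes5 was called in explants. The sign of Jag1 in NSPCs reversed under median-of-ratios scaling (-0.07). The difference between the systems was not tested, since strain, culture, possibly dose, and the way the values were fitted differ together. Of the 8 progenitor markers the authors' deposited table called 1 higher and 5 lower, of the 8 neuron markers 3 higher and 3 lower, and of the 8 endothelial and 7 tested mural markers 0 of each. It called 20.2% of all genes with a computed value. The part of the progenitor markers in the Notch gene changes was not tested.

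Of the other pathway genes 55 had an adjusted p in the authors' deposited table, with 4 higher and 7 lower, a share close to the 20.2% called over all genes. The lower genes included the receptor-modifying enzyme Lfng (-0.87, adjusted p = 8.9e-14), the Notch target and inhibitor Nrarp (-0.30, adjusted p = 5.8e-07), Bcl6 (-0.75, adjusted p = 1.5e-05) and Dlk1 (-0.69, adjusted p = 2.1e-35). In the authors' deposited table Tle4 was lower too (-0.23, adjusted p = 8.4e-06), as was Dner (-0.07, adjusted p = 0.0237). Higher there were Aph1b of the gamma-secretase complex (0.21, adjusted p = 4.8e-05), Rfng (0.16, adjusted p = 0.0135), Dtx1 (0.13, adjusted p = 0.00437) and Tle3 (0.08, adjusted p = 0.0156). Lfng was higher, not lower, in crotonate NSPCs, at 203 ± 12.5 TPM against 176 ± 15.9 TPM in control (0.21, SE 0.07, limma adjusted p = 0.0178), and this difference between systems was not tested either.

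The forebrain itself carried the pathway in other proportions than the cultures. Its 1 library held 119 TPM of Dll1, 38.2 of Dll3 and 53.8 of Hes5, which is 5.23, 6.08 and 4.82 times the control NSPC mean. Jag1 was the reverse, at 12.3 TPM or 0.311 times the culture level, and Hes1 at 28 TPM was 0.676 times it. With 1 library there is no test. On the log2(TPM + 1) scale 3 of the 10 genes were at least 2-fold higher in the forebrain, as were 19.2% of tested genes, and 1 was at least 2-fold lower, as were 11.6%. All 10 lay outside the range of the 4 controls, as did 85.2% of tested genes.

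Notch2 at 16.9 TPM and Rbpj at 78 TPM were 1.93 and 1.85 times the control mean, and above all 12 NSPC libraries. Notch1 at 76.4 TPM and Notch3 at 23.7 TPM were above the controls and inside the range of the 12 libraries, and Hey1 had 32 TPM. After median-of-ratios scaling the 10 genes kept their directions, with log2 differences of 2.06 for Dll1, 2.14 for Dll3, 1.93 for Hes5, 0.60 for Notch2, 0.57 for Rbpj, 0.14 for Notch1, 0.12 for Notch3, 0.12 for Hey1, -0.84 for Hes1 and -1.88 for Jag1. Of the summed Dll1, Dll3 and Jag1 RNA, Dll1 was 70.2% in the forebrain and 33.2% in control NSPCs, where Jag1 made up 57.6%. Jag2, which is not in that sum, had 11.5 TPM in the forebrain. The ratio of Hes1 to Hes5 was 0.52 in the forebrain, below the lowest culture value of 2.64.

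Markers of neurons summed to 2883 TPM in the forebrain and to between 593 and 668 TPM in control NSPCs, where Gap43 at 622 TPM on average made up most of the sum and Tubb3 averaged 11.8 TPM. Markers of progenitors summed to 2176 TPM in the forebrain and to between 9601 and 10138 TPM in control NSPCs, mostly as Vim and Fabp7. Pax6 at 112 TPM, Sox1 at 80.4 and Prom1 at 46.6 TPM were higher in the forebrain than the control means of 24.7, 16.1 and 8.51 TPM. All 8 endothelial markers were at 1 TPM or more in the forebrain, summing to 65.4 TPM against 1.67 to 2.41 TPM. The part of these cells in the differences was not tested.

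Peaks were assigned to a gene when they overlapped its annotated span widened by 1 kb. In the untreated forebrain H3K9ac peaks lay at all 10 genes and H3K9cr peaks at 9, all but Jag1, where 88.2% and 78.1% of the genes tested in NSPCs had such a peak. Each of the 10 H3K9cr peaks overlapped an H3K9ac peak, and 10 of the 21 H3K9ac peaks overlapped an H3K9cr peak. Jag1 had the weakest H3K9ac of the 10, with a fold enrichment of 4.27 at its strongest peak. Jag1 and Hes1 had less RNA in the forebrain than in any NSPC library. The strongest Hes1 peak had 10.7, above that of Hey1 at 9.43, a gene with more RNA in the forebrain than in any NSPC library. No H3K9ac list of NSPCs was at hand to compare. Fold enrichments are the authors', taken from their peak caller.

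Dll1 and Rbpj had the strongest forebrain peaks of the 10. The H3K9ac peak over the Dll1 start, chr17:15374172-15377718, had a fold enrichment of 44.4, above 93.3% of the peaks of its list, and the H3K9cr peak there, chr17:15374032-15377066, had 13.4, above 76.9%. The Rbpj peaks had 40.6 for H3K9ac (above 91.2%) and 14.2 for H3K9cr (above 79.8%). The Dll1 window printed above lies wholly inside the H3K9ac peak and partly inside the H3K9cr peak. At Hes5 the fold was 15 and 8.33, and at Hes1 10.7 and 5.07, near or below the middle of each list. Dll3, with 16.6 and 10.2, lay at 59.5% and 62.1%.

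In NSPCs the lists hold positions alone, with 1 library each and no test. Kcr peaks lay at 9 of the 10 genes in control, 10 with crotonate and 6 with MS-275, where 64.6%, 74.7% and 23.4% of tested genes had them. Kac peaks lay at 10, 10 and 7 genes, against 73%, 70.3% and 25.4%. The MS-275 lists are much shorter, with 5845 Kcr and 7555 Kac peaks, against 17669 to 23427 in the other 4 NSPC lists, so a gene without an MS-275 peak is not shown to have lost the mark. Notch1, Notch3, Dll1, Jag1 and Hes5 had peaks in all 6 NSPC lists.

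The receptors differed in the shape of their marks. Notch1 had 8 Kcr peaks in control and 7 with crotonate, in 2 clusters, from just before the start to a few kb inside and about 15 to 18 kb inside the gene. Of the 12 Kac peaks of Notch1 in control, 5 overlapped a Kac peak with crotonate, and 6 of its 6 Kac peaks with crotonate overlapped a control peak. Notch2 had 1 Kcr peak in control and 2 with crotonate, all near its start. Notch3, the receptor that rose with both treatments, had 2 Kcr peaks in control and 3 in each treated list. The added peak began 3906 bp inside the gene with crotonate (chr17:32162334-32162984) and 4205 bp inside with MS-275 (chr17:32162429-32162685). It overlapped the second forebrain H3K9ac peak (chr17:32162310-32162939). The Notch3 bases under Kcr peaks went from 448 in control to 1548 with crotonate and 734 with MS-275, and those under Kac peaks from 172 to 999 and 230, with no replicate for any of them. Notch1 and Notch2 RNA also rose with MS-275. There the Notch1 bases went from 3629 to 1217 for Kcr and from 5832 to 1402 for Kac. Those of Notch2 went from 350 to 594 for Kcr and from 1291 to 0 for Kac. The shortness of the MS-275 lists limits these values. With crotonate the Kcr bases also rose at Hey1, from 197 to 1120, and at Hes1, from 0 to 602. They rose by less at Notch2, Dll3, Jag1 and Hes5 and fell at Notch1, Dll1 and Rbpj. Of these genes only Dll3 had its RNA called with crotonate. No list had a peak over the Notch3 window printed above.

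At the ligands, Dll1 had 3 Kcr peaks in control and 5 with crotonate, yet the covered length went from 1687 to 1264 bp. Dll3 had 2 Kcr and 2 Kac peaks in control and with crotonate, and its printed window was touched by a peak in 7 of the 8 lists, all but Kcr with MS-275. Jag1 had 3 Kcr peaks under both, and its Kac peaks went from 2 to 1.

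Hes1 was without a Kcr peak in the control list and had 2 in the crotonate list, at chr16:30064410-30064682 outside the gene span and chr16:30066500-30066828 inside it. A Kac peak overlapped the latter place in control (chr16:30066643-30066891) and with crotonate (chr16:30066520-30066881). Neither MS-275 list had a Hes1 peak, the treatment under which Hes1 RNA was lowest, with the limit on those short lists given above. Rbpj also had no peak in either MS-275 list, and its RNA changed by -0.04 (log2) with MS-275. Notch2 had no Kac peak and Dll3 no Kcr peak with MS-275, and the RNA of both was called higher. Hey1 had no Kcr peak with MS-275, and its RNA was not called. Hey1 had 1 Kcr peak in control and 3 with crotonate, and 4 and 2 Kac peaks. Hes5 had 2 and 3 Kcr peaks, which lay from 345 bp past the start site on and so outside both printed Rbpj motif stretches.

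Over the 10 genes the Kcr list held 25 peaks in control, 21 of them overlapped by a crotonate peak, and 32 with crotonate, 22 of them overlapped by a control peak. The Kac list went from 34 peaks, of which 18 were overlapped with crotonate, to 24, of which 20 were overlapped in control. At these genes Kcr peaks were thus more and Kac peaks fewer in the crotonate list. The whole lists went from 17669 to 23301 Kcr and from 23427 to 21616 Kac peaks.

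**Figure D4:**
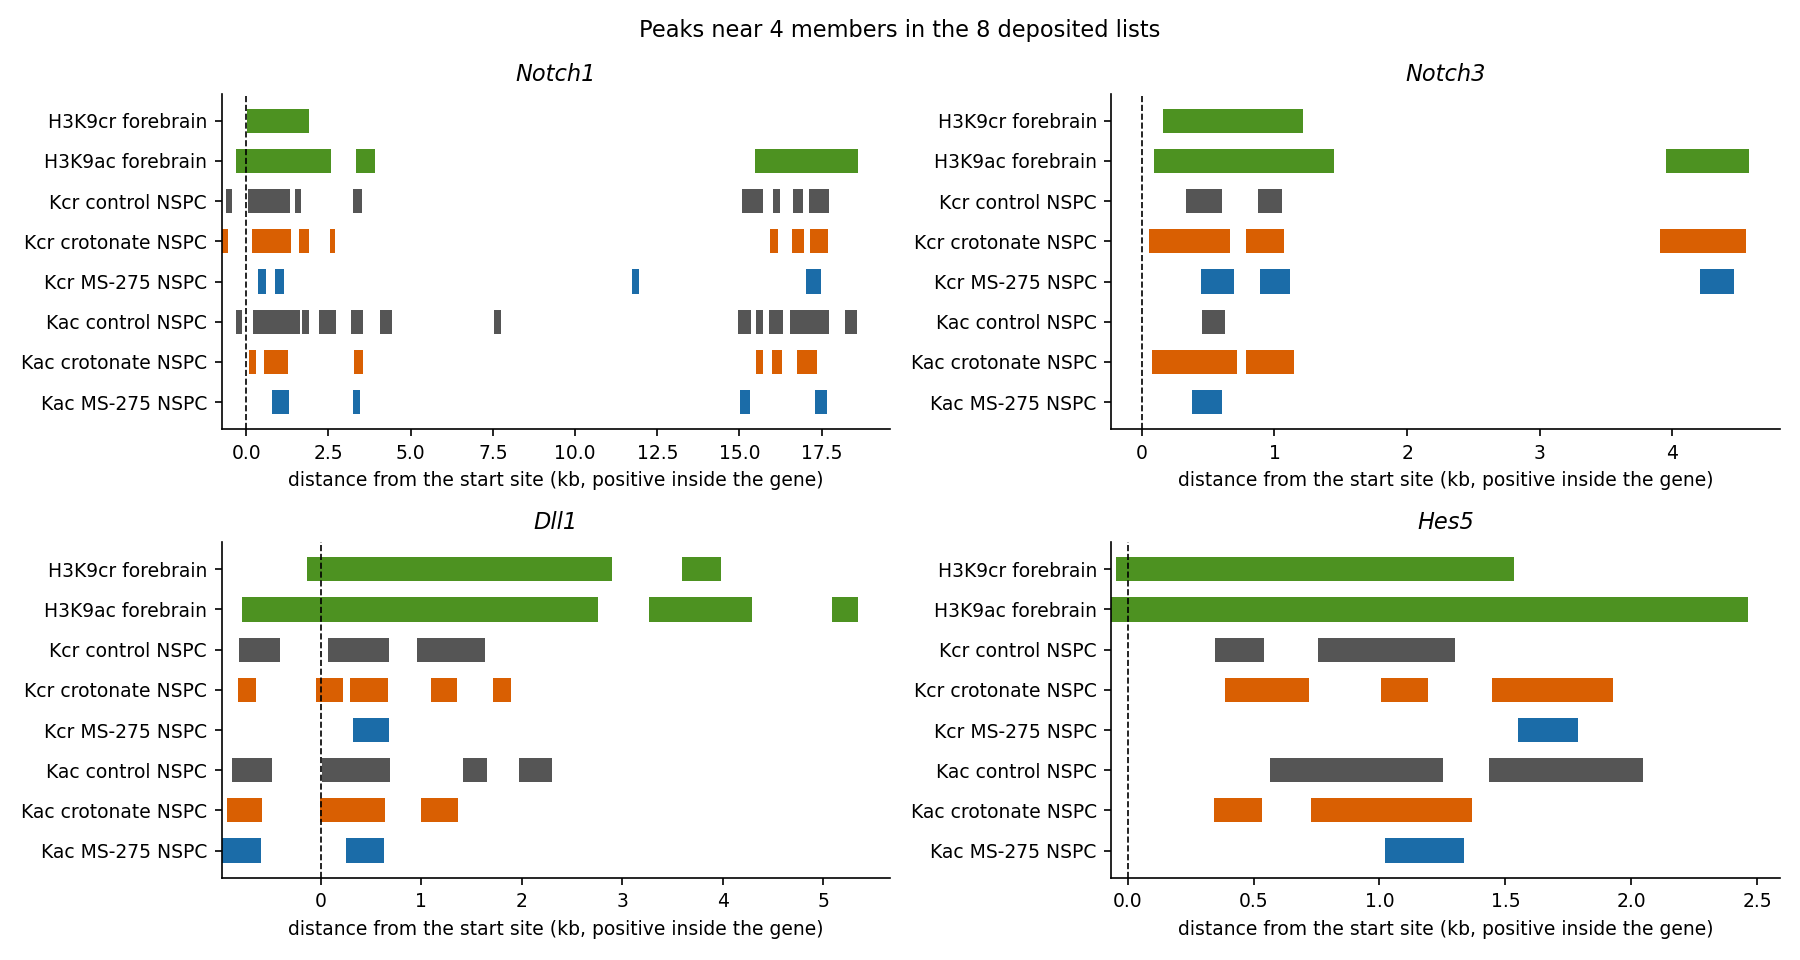
Peaks of the 8 lists near Notch1, Notch3, Dll1 and Hes5, drawn as bars by distance from the start site in kb, positive inside the gene, with 1 library per list and scales that differ between panels. Kcr with crotonate and with MS-275 shows an added Notch3 peak near 4 kb that the control Kcr list does not hold, and Hes5 has NSPC peaks only downstream of its start.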

How the data were processed

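The submitters' processing notes name Salmon 1.0.0, DESeq2 1.26.0, Bowtie2 2.3.5.1, MACS2 2.2.5 and the build GRCm38. The authors deposited TPM values for NSPCs and forebrain. For the explants they deposited a table with the mean normalized count (a signal), log2 fold changes, their ratio to the SE as a score, p-values and adjusted p-values. The direction of that table, crotonate against control, is known only from the name it was deposited under. The forebrain peak lists hold, as deposited, a score, a fold (ratio) over background and -log10 p and q values, and the NSPC lists hold positions alone, so their threshold is not known.

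The 3 NSPC groups were fitted together on log2(TPM + 1) by limma 3.58.1 under R 4.3.3 (eBayes, trended prior, two-sided, Benjamini-Hochberg), keeping genes that reached 1 TPM in 4 or more libraries. P-values measure the spread between these biological replicates. The sample titles number the replicates and do not state that equal numbers were paired. After removal of group means, same-numbered libraries correlated at 0.119 to 0.241 (12 pairs), others at -0.197 to 0.0993 (36 pairs). The fit without a replicate block is the one reported, so its errors include any variation that same-numbered libraries share. The limma steps were tested on simulated data. Explant calls use the authors' adjusted p. Peaks were overlapped (at least 1 bp) with bedtools 2.31.1 on RefSeq spans. Other pathway genes were named by rule: the 4 smallest adjusted p per direction with a mean of at least 5 TPM in the higher group, in the NSPCs; those named in explants, Lfng, and the genes under the other observations were chosen after their values were seen. Some genes that the rule names are not reported here. Likeness is Pearson's r over 12 libraries. The members and lists were chosen with earlier results of these data known. Pseudocounts, filters, scaling, trend, block and single libraries left out were tried as alternatives. Python 3.11.15, pandas 2.3.3 and matplotlib 3.10.9 made tables and figures.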

Additional observations from a re-analysis of the deposited data

Results flagged for a closer look

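Among the 30 groups of 4 libraries formed by the 10 genes and 3 treatments, 1 held a library far from the other 3. Notch1 in control replicate 4 had 69.2 TPM, where the other controls had 51.1 to 53.3 TPM. The gap to the nearest library, as a share of the range, exceeded the 95% critical value of Dixon's test, which chance does in about 1 of 20 groups. Without this library the log2 fold change of Notch1 was 0.13 (limma adjusted p = 0.238) with crotonate and 0.85 (adjusted p = 4.1e-06) with MS-275, so neither call changed.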

How the results depend on the processing

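For the 10 genes against control, the calls of Notch3 (both treatments), Notch1, Notch2 and Hes1 (MS-275) held under all settings tried. Members called with crotonate went from 2 to 5 under median-of-ratios scaling, and between MS-275 and crotonate from 5 to 3 without a filter and to between 3 and 5 with 1 library left out. With the replicate block members called were 3, 6 and 5 for crotonate, MS-275 and their difference, against 2, 5 and 5; beyond Dll1 (crotonate) and Hes5 (MS-275), it changed no call of a member. Values of uncalled genes changed sign: under median-of-ratios scaling, Notch1 (-0.10) and Jag1 (-0.07) with crotonate and Jag1 (-0.01) with MS-275, and under quantile normalization Rbpj with MS-275 (0.01) and Hey1 between treatments (0.01). With 1 library left out, Notch1 ran from -0.04 to 0.13 and Jag1 from -0.02 to 0.12 with crotonate, and between treatments Dll3 from -0.05 to 0.09, Jag1 from -0.03 to 0.10 and Hes5 from -0.28 to 0.23. The cause was not tested. The 5 explant calls held at an adjusted p under 0.01 and with a mean count of at least 50. No paired analysis was possible because the explant table holds no values per library and each peak list is 1 library. Counts of members with a peak stayed within 1.5 times under other windows, overlaps and q limits, and under a window of 1 kb around start sites, which was chosen after seeing the data. Depth is unknown for all lists and libraries, which limits statements about genes without a peak.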

Other observations

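Other Hes and proneural genes separated tissue from culture. Neurog2, the proneural gene of dorsal forebrain progenitors, had 105 TPM in the forebrain library and averaged 0.116 TPM in control NSPCs, and Neurog1 had 12.1 and 0.12 TPM. Hes6, which promotes neuron formation, had 163 and 64.8 TPM, and Helt 7.65 and 0.0205 TPM. Lfng went the other way, at 29.9 TPM in the forebrain and 176 TPM in control cultures. With MS-275 Hes6 fell to 47.5 TPM (log2 fold change -0.44, SE 0.07, limma adjusted p = 1.5e-04).

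Dlk1, a ligand-like protein without the domain that activates Notch, was higher with crotonate, at 17.2 ± 4.13 TPM against 5.17 ± 1.28 TPM in control (1.56, SE 0.21, limma adjusted p = 7.8e-05). In the authors' deposited table for explants it was lower, at -0.69. The enzyme gene Mfng rose from 4.53 ± 1.07 to 10.1 ± 1.64 TPM with crotonate (1.01, adjusted p = 1.3e-04) and to 13.6 ± 1.6 TPM with MS-275 (1.42, adjusted p = 2.9e-06).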
